A study of Mus musculus with 138 samples.

Results

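The 2 bony edges that face each other across the lambdoid suture of the mouse were compared at E16.5, where E counts days of embryonic development. One edge belongs to the interparietal bone (IP) and the other to the parietal bone (PA), and each was sampled as an osteogenic front (OF), the strip of dividing and differentiating osteoblasts at the margin of a growing skull bone. Members were taken by their labels: lambdoid suture, E16.5, and either IP or PA osteogenic front. This gave 5 IP and 5 PA libraries, 10 of the 138 samples of the series and 10 of its 100 first laser-captured libraries. The embryos were wild type C57BL/6J mice with no treatment, and IP and PA differ only in the bone from which the front was cut. The study cut OFs and the sutural mesenchyme (SM), the unossified tissue between them, from sections of 4 sutures at 2 ages by laser-capture microdissection, a method that lifts chosen pieces of a section with a laser. A library is therefore a mixture of the cells in the cut piece, so a difference may reflect fewer cells of a type or less RNA per cell, and these cannot be told apart. Each replicate number stands for 1 embryo: the IP, PA and SM pieces of a number carry the same litter label. Replicates 1 to 4 share 1 litter code and replicate 5 has another.

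The flat bones of the skull vault are membrane bones: sheets of mesenchyme ossify in place, and the bones then widen as osteoblasts are added at their margins. Osteoblasts at a front first secrete a collagen I scaffold, and later add the phosphoproteins and enzymes that go with mineral. The lambdoid suture separates the parietal bones from the interparietal bone at the back of the vault; its bones meet end to end, with SM between them. The parietal bone arises from mesoderm, whereas the interparietal bone has a contribution from the neural crest.

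The libraries were of similar depth. IP libraries held 8461589 to 10301961 read pairs assigned to genes and PA libraries 9474912 to 11294521, with 23405 to 24740 and 21967 to 24460 genes detected. Genes detected were higher in IP in 4 of 5 embryos (exact sign-flip permutation test over the 5 pairs, two-sided p = 0.125, where the smallest p this design allows is 0.0625). Both fronts carried the genes of their label. Summed over 14 osteoblast transcription factors, IP libraries held 3082 to 3458 counts scaled to a library of 1000000 read pairs (CPM) and PA libraries 3195 to 4989, against 1436 to 2262 in the SM of the same embryos. Sp7, the zinc finger factor that commits cells to the osteoblast fate, was at 434, 449, 462, 394 and 406 CPM in IP and 576, 837, 643, 601 and 438 CPM in PA, and at 35.5 to 118 CPM in SM.

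Genes were compared in CPM after TMM scaling (trimmed mean of M-values), with the embryo as a block, by the edgeR quasi-likelihood test with Benjamini-Hochberg adjustment over 19768 genes; a gene is called here at an adjusted p under 0.05. Differences are log2 values, IP minus PA. Their standard errors (SE) were worked back from the difference and the F statistic of the test. Between the fronts 194 genes were called, 0.981% of those tested. Of these 95 (0.481%) were higher in IP and 99 (0.501%) higher in PA. The 5 IP and the 5 PA values did not overlap for 117 of the 194 called genes, and for 4.46% of all genes. Genes higher in PA had a median difference of -0.62, and 14 of them differed 2-fold or more. Genes higher in IP had a median difference of 0.98, and 45 of them differed 2-fold or more. The median over all genes was 0.004.

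The number of called genes depended on the fit and on which embryos were kept. Without embryo 2 it was 32, without embryo 3 45, without embryo 1 79 and without embryo 4 92; within the first litter, without embryo 5, it was 212. When only the 10 IP and PA libraries were fitted it was 966, and without the embryo block 96, of which 95 were among the 194. The balance of directions depended on the scaling: by total counts alone, which moves the median of all genes to 0.18, 160 genes were called higher in IP and 29 higher in PA. No gene among the 194 changed sign in any of the 15 other settings tried.

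**Figure D1:**
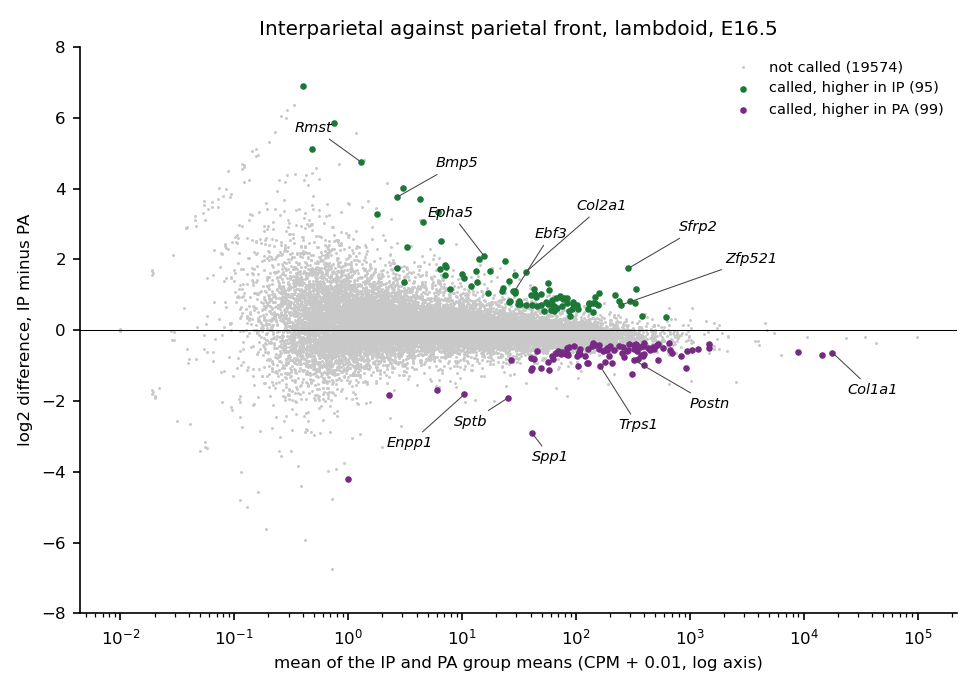
Log2 difference between the fronts (IP minus PA, vertical axis) against mean abundance (CPM plus 0.01, log axis) for the 19768 genes tested, 1 point a gene. Green points are the 95 genes called higher in IP, purple points the 99 called higher in PA. The median difference is -0.62 for the purple points and 0.98 for the green ones, with 14 purple and 45 green points at 2-fold or more.

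Genes of the bone matrix that were called were higher in the parietal front. Of 31 tested genes in a list of 34 osteoblast and bone matrix genes, 7 were called, all higher in PA, against 0.501% of all genes. The difference was below 0 for all 31, with a median of -0.63 beside 0.004 for all genes. With scaling by total counts the median was -0.46 and 2 genes lay above 0. Without embryo 2, 2 were called, and the median was -0.53. Within the first litter, without embryo 5, 7 were called. Over all genes 18 were called higher in PA without embryo 2 and 101 without embryo 5. The 7 were Spp1, Enpp1, Postn, Col24a1, Col1a2, Col1a1 and Sparc.

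Spp1 encodes osteopontin, a phosphoprotein of mineralising matrix (chr5:104435118-104441050 of mm10, plus strand). It was at 10.8, 3.67, 13.3, 5.99 and 5.04 CPM in IP embryos 1 to 5 and at 149, 77.9, 117, 17.9 and 9.71 CPM in PA. PA embryos 1 to 3 stood far above every IP library, while PA embryo 5 lay within the IP range. The difference was -2.902 (SE 0.57, adjusted p = 0.00206), and in every embryo the PA piece was the higher one; without embryo 2 the adjusted p was 0.0708. The level in SM was 1.7 to 6.7 CPM.

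Enpp1 makes the pyrophosphate that restrains mineral growth (chr10:24637914-24712159, minus strand). It was at 3.32, 2.41, 7.21, 4.23 and 6.52 CPM in IP and 19.5, 13.9, 19.2, 15.4 and 13.1 CPM in PA, so that the groups did not overlap. The difference was -1.81 (SE 0.28, adjusted p = 5.56e-05), a call that was lost by voom.

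Periostin (Postn), a secreted protein of the periosteum that binds collagen, was at 223, 207, 209.5, 285 and 241 CPM in IP and 421, 419.8, 427, 423 and 369.5 CPM in PA. Here the PA libraries were close to each other and all above IP, with a difference of -0.84 (SE 0.16, adjusted p = 0.00127), not called by voom; SM, at 309 to 520.2 CPM, lay above the IP range.

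The 2 chains of collagen I, the scaffold of bone, differed less in fold. Col1a1 was at 13945, 14848, 13826, 13141 and 12466 CPM in IP and 20124, 36287, 25021, 15802 and 13088 CPM in PA, a difference of -0.63 (SE 0.16, adjusted p = 0.028). Col1a2 was at 10628, 10843, 10785, 10225 and 10706 CPM in IP and 16811, 28349, 21870.3, 13489.8 and 10523 CPM in PA, a difference of -0.71 (SE 0.13, adjusted p = 0.000889). For both, the IP libraries were nearly level and the PA libraries spread out, with embryo 2 at the top and embryo 5 at the IP level. Col1a1 lost its call by total counts, by voom, by DESeq2, without the block, and without embryo 1, 2 or 3.

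Sparc, a collagen-binding glycoprotein of bone, ranged from 6234 to 7874 CPM in IP and from 7855 to 15703 CPM in PA (-0.62, SE 0.14, adjusted p = 0.0116). Col24a1, a fibrillar collagen of forming bone, ranged from 465 to 653 CPM in IP and from 650.3 to 1561 CPM in PA (-0.74, SE 0.19, adjusted p = 0.0338), and was at 63.5 to 181 CPM in SM. For both, PA embryo 5 lay within the IP range.

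Genes of the osteocyte and of mineral balance had values below 0 that did not pass the test. Dmp1 and Phex are given here and were not picked by a rule set beforehand. Dmp1, an acidic matrix protein of young osteocytes, was at 2.78, 5.87, 5.69, 4.49 and 2 CPM in IP and 25, 44.2, 32.1, 5 and 3.33 CPM in PA, with no read in the 5 SM libraries (-1.98, SE 0.65, adjusted p = 0.152). Phex, an endopeptidase of phosphate balance, was at 34, 35.5, 28.5, 25.9 and 16.7 CPM in IP and 94.5, 196.2, 168, 44.7 and 29 CPM in PA (-1.64, SE 0.48, adjusted p = 0.0787). PA embryos 1 to 3 again stood well above IP for both genes, and PA embryos 4 and 5 were close to or within the IP range.

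**Figure D2:**
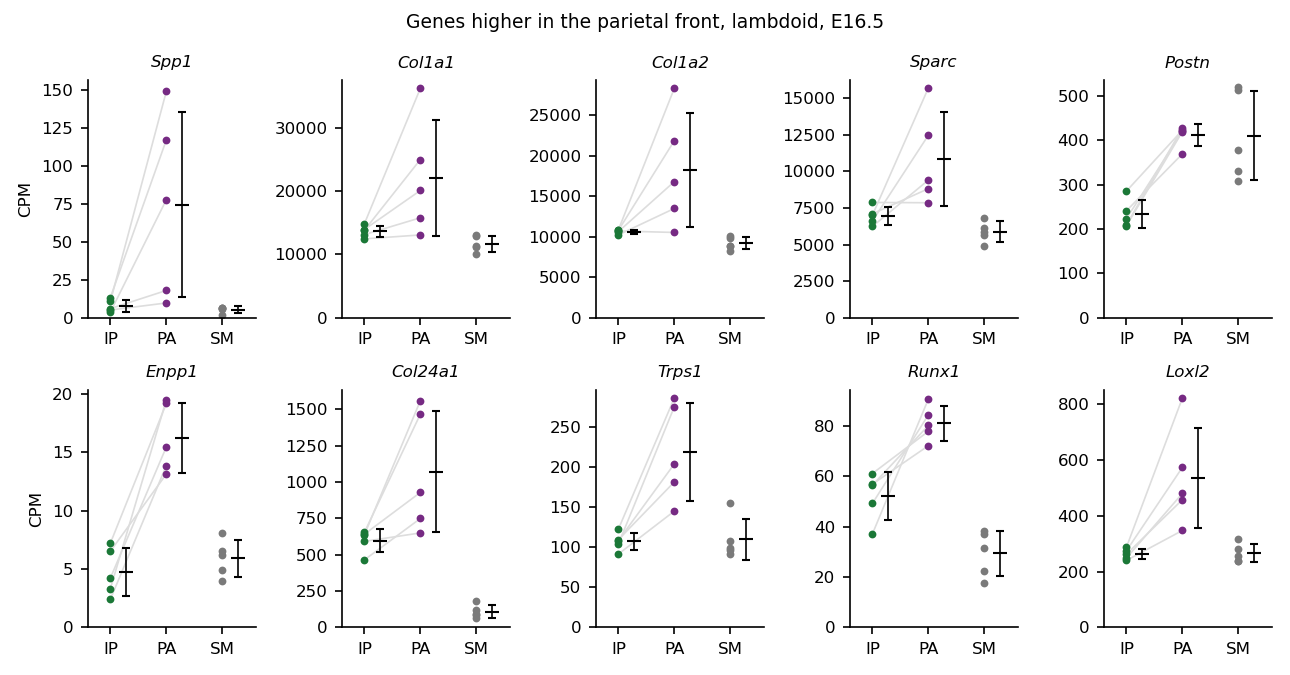
CPM of 10 genes called higher in PA, 1 point a library, for IP (green), PA (purple) and SM (grey) at E16.5; grey lines join the IP and PA pieces of an embryo, and black bars give the mean and SD over 5 embryos. PA libraries of Spp1 run from 9.71 to 149 CPM, and those of Postn from 369.5 to 427 CPM.

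Upstream sequences are shown for the bone matrix members with the 2 largest called differences, Spp1 and Enpp1, as windows that hold the short core motif to which Runx factors, regulators of bone genes, bind. The 11941 tested genes that matched a symbol in the RefSeq promoter table (GRCm38.p6) had 15251 windows of 300 bases, 250 before and 50 after a start site. The core TGTGGT, or ACCACA on the other strand, occurred in 12.8% of them, in 15 of 96 windows (15.6%) of genes called higher in PA and in 12 of 94 (12.8%) of genes called higher in IP. For the bone matrix list it was 9 of 38 windows (23.7%), and for its called genes 3 of 8. These 8 windows belong to 6 of the 7 called genes, as Col1a1 had no window. Apart from Spp1 and Enpp1, the remaining match lies at least partly after the start site. The 250 bases before the start held no match for Postn, Col24a1, Col1a2, Sparc or a second start site of Spp1. A match is a description of letters and not a site. The 250 bases before a start site of each gene are given in the direction of the gene, with the core in capitals; the regions are chr5:104434861-104435110 for Spp1 (plus strand) and chr10:24712160-24712409 for Enpp1 (minus strand).
Spp1: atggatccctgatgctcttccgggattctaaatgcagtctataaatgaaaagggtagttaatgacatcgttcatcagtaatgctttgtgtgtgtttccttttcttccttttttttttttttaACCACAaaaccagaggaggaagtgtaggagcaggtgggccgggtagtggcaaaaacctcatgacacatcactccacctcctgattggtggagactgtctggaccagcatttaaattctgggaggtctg
Enpp1: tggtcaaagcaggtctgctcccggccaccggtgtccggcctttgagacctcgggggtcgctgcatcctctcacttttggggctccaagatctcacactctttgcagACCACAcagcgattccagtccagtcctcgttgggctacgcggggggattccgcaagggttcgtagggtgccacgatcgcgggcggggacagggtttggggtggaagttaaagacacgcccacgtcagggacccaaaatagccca

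Several enzymes that finish collagen were called higher in PA. In a list of 29 genes of collagen hydroxylation, processing and crosslinking, set up after values had been seen, 5 were called, all higher in PA, against 0.501% of all genes; 8 lay above 0. The median difference was -0.38 (-0.24 without embryo 2 and -0.20 by total counts), and since the list was chosen on these values its count is no independent evidence. Loxl2, a lysyl oxidase that crosslinks collagen, was at 249, 287, 275, 263 and 240.3 CPM in IP and 481, 823, 575, 458 and 348 CPM in PA. The groups were apart, and the difference of -0.98 (SE 0.13, adjusted p = 3.1e-06) remained called in all 15 other settings.

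P4ha1, the catalytic subunit of collagen prolyl 4-hydroxylase, was at 342, 364, 379.6, 327 and 426 CPM in IP and 635, 896, 883, 556 and 439.8 CPM in PA (-0.86, SE 0.15, adjusted p = 0.000669). P3h2, a prolyl 3-hydroxylase, was at 36.4, 37.2, 38.8, 27.6 and 37.3 CPM in IP and 77.1, 109.5, 99.3, 70.7 and 50.9 CPM in PA (-1.13, SE 0.22, adjusted p = 0.00202). All PA libraries of both genes were above all IP libraries, with the narrowest gap in embryo 5. P4ha2 (-0.68, adjusted p = 0.0426) and Tent5a (-0.81, adjusted p = 0.000988), whose product stabilises collagen I transcripts, were the others called. Loxl1, which crosslinks elastin, differed in the other direction without passing the test (0.88, adjusted p = 0.349).

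The fibrillar collagen chains Col11a1 and Col5a2 were called higher in PA, while Col2a1, described with the cartilage markers, was called higher in IP. Col11a1, a minor chain of cartilage and bone fibrils, was at 611, 613, 623, 587 and 472 CPM in IP and 1159, 1924, 1556, 911 and 759 CPM in PA (-1.08, SE 0.15, adjusted p = 1.08e-05). Col5a2, which helps to set fibril width, was at 537, 562, 569, 564 and 498 CPM in IP and 818, 1099, 993, 791 and 596 CPM in PA (-0.64, SE 0.096, adjusted p = 3.3e-05). Neither gene's groups overlapped, and both remained called in all 15 other settings. Tenascin C (Tnc; -0.54, adjusted p = 0.0122) and lumican (Lum; -0.53, adjusted p = 0.0247) were called in the same direction.

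Of 47 genes of the translocon, signal peptidase, oligosaccharyltransferase and folding in the endoplasmic reticulum (ER), a list also set up after values had been seen and so no independent evidence, 10 were called, all higher in PA, against 0.501% of all genes. The difference was below 0 for 45 of them, with a median of -0.45 (-0.26 by total counts). By total counts 1 was called, and 2 were called without embryo 2 and also without embryo 3, while 25, 33 and 26 were called when 30, 15 or 10 libraries were fitted and 41 by DESeq2. Over all genes the calls higher in PA were 29 by total counts, 18 without embryo 2 and 21 without embryo 3. They were 392, 500 and 469 in 30, 15 or 10 libraries and 754 by DESeq2. The list's summed level was 10344 to 11262 CPM in IP and 11811 to 17832 in PA, with no overlap. Stt3a, a catalytic subunit that adds N-glycans to entering chains, was at 403, 399.9, 370.4, 389 and 261 CPM in IP and 538, 664, 541, 540.5 and 399 CPM in PA (-0.56, SE 0.11, adjusted p = 0.00169). Embryo 5 was lowest in both groups, and PA was higher in all 5 embryos. Edem3 (-0.73, adjusted p = 0.000889), Tram1 (-0.56, adjusted p = 0.00919), Ssr3 (-0.58, adjusted p = 0.0194), Pdia3 (-0.55, adjusted p = 0.0214), Selenos (-0.68, adjusted p = 0.0185), Serp1 (-0.58, adjusted p = 0.022), Canx (-0.40, adjusted p = 0.0455), P4hb (-0.57, adjusted p = 0.0471) and Hsp90b1 (-0.50, adjusted p = 0.0473) were the others.

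Among 14 osteoblast transcription factors, 1 was called in each direction, against 0.481% of all genes higher in IP and 0.501% higher in PA. Runx1, a Runt family factor of blood and skeletal progenitors, was at 49.2, 56.4, 61.1, 37.1 and 56.8 CPM in IP and 84.3, 80.1, 77.8, 90.6 and 72.1 CPM in PA. The groups did not overlap and the difference was -0.65 (SE 0.17, adjusted p = 0.0339), a call that was lost by total counts, by voom, without the block and without embryo 1, 2, 3 or 4. Zfp521, a zinc finger protein that restrains Runx2 and osteoblast maturation, was at 265, 265, 307, 360.3 and 330.1 CPM in IP and 180.4, 129, 171, 249 and 213 CPM in PA, again without overlap (0.71, SE 0.12, adjusted p = 0.00042); it remained called in all 15 other settings. In SM it was at 443 to 698 CPM, above both fronts. Runx2 itself, the master factor of the lineage, did not pass (-0.13, adjusted p = 0.977), nor did Sp7 (-0.48, adjusted p = 0.574).

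Trps1, a GATA-type repressor of skeletal cells, had the smallest adjusted p of the comparison. It was at 108, 123, 104, 109 and 91.5 CPM in IP and 204, 286, 275, 182 and 145 CPM in PA, with every PA library above every IP library (-1.01, SE 0.13, adjusted p = 2.54e-06). Of the other genes of largest difference, Cd109, a membrane protein that binds TGF-beta, was at 59.7 to 75.6 CPM in IP and 83.7 to 195 CPM in PA (-1.0, SE 0.14, adjusted p = 4.61e-06). Plppr4 (-1.68, adjusted p = 0.0113), Kcnk1 (-1.07, adjusted p = 0.0116), Ap1s2 (-1.06, adjusted p = 0.0116), Aldh1l2 (-0.94, adjusted p = 0.0134), Vldlr (-0.92, adjusted p = 0.022) and Rpl39l (-1.83, adjusted p = 0.0293) completed the 15 of largest difference with Spp1, Enpp1, Sptb, Chrdl1, P3h2, Col11a1, Trps1, Cd109 and Loxl2. Rpl39l is a close copy of Rpl39, so that reads may be shared between them; Rpl39 did not pass the test (-0.27, adjusted p = 0.682).

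Red cell genes were uneven among the PA pieces. Of 12 erythroid markers 9 were tested, and their summed level was 1187, 1919.9, 978, 4861 and 1274 CPM in IP embryos 1 to 5 and 7358, 19221, 5924, 2128 and 919 CPM in PA. PA embryos 1 to 3 exceeded every IP library, while in embryos 4 and 5 the IP piece held more. All 9 lay below 0, with a median difference of -1.44, and none was called (7 had an unadjusted p under 0.05; voom called 7, DESeq2 none, and edgeR 6 with no filter on low counts and 3 in the 30 lambdoid libraries); Hba-a1 (-1.44, adjusted p = 0.0746) and Hbb-bt (-1.52, adjusted p = 0.111), globin chains with near-identical copies in the genome, had the smallest p. Without embryo 2 the median of the list was -0.82, and without embryo 4 or 5, whose pieces went the other way, 5 and 4 were called. Over all 19768 genes 1705 had an unadjusted p under 0.05, and voom called 90 higher in PA. Calls higher in PA over all genes were 54 without embryo 4 and 101 without embryo 5. They were 197 with no filter, 392 in the 30 libraries and 754 by DESeq2.

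In a list of 20 genes of the red cell membrane skeleton and iron uptake, chosen after values had been seen, 4 of 17 tested were called higher in PA, against 0.501% of all genes. None of the list was called without embryo 1, without embryo 2 or without embryo 3. Over all genes these 3 fits called 37, 18 and 21 higher in PA. Slc25a37, the iron importer of mitochondria, was at 114, 170.2, 95.9, 347 and 119 CPM in IP and 524, 987, 434, 209.8 and 99 CPM in PA (-1.23, SE 0.28, adjusted p = 0.012); it was higher in PA in embryos 1 to 3 only, as were Epb41 (-0.93, adjusted p = 0.0189) and Bnip3l (-0.68, adjusted p = 0.0195). Sptb, beta spectrin of red cells and muscle, differed from these: it was at 6.64, 11.3, 7.59, 13.8 and 11.2 CPM in IP and 34.8, 68.9, 35.7, 37.4 and 25.1 CPM in PA. All 5 PA libraries were above all 5 IP libraries, embryos 4 and 5 included (-1.91, SE 0.46, adjusted p = 0.021). The part of red cells in the PA calls was not tested.

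In the other direction, the interparietal front held more of several signalling genes. Bmp5, a ligand of the BMP family, was at 4.85, 3.88, 5.4, 5.9 and 4.78 CPM in IP and 0.382, 0, 0.103, 0.447 and 0.989 CPM in PA (chr9:75775364-75900310, plus strand). IP libraries were all near the level of SM, 4.9 to 9.03 CPM, while PA libraries were at or under 1 CPM, and 1 of them held no read. The difference was 3.75 (SE 0.56, adjusted p = 3.13e-05), and it remained called in all 15 other settings. It was the only member of 33 tested BMP and TGF-beta pathway genes called in this direction, against 0.481% of all genes.

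Chrdl1, a secreted BMP antagonist, was the only one called in the other. It was at 26, 22.4, 21.2, 25 and 33.5 CPM in IP and 53.3, 72.5, 56.3, 53.4 and 43.2 CPM in PA, with no overlap (-1.13, SE 0.25, adjusted p = 0.00919). The median difference over the 33 genes of the pathway was -0.10, and 15 lay above 0. In the fit to all 100 libraries the calls in the pathway were thus a ligand and an antagonist that differed in opposite directions. DESeq2 called 3 of the 33 higher in IP and 5 higher in PA, and edgeR in the 30 lambdoid libraries 4 and 4. Over all genes DESeq2 called 899 higher in IP and 754 higher in PA, and the 30 libraries 526 and 392.

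Sfrp2, a secreted Frizzled-related modulator of Wnt signalling, was at 359.9, 363, 461, 564 and 431 CPM in IP and 133, 41.9, 103, 204 and 214 CPM in PA (chr3:83766321-83774316, plus strand). Every IP library lay above every PA library, and SM, at 1471 to 1841 CPM, lay above both. The difference was 1.74 (SE 0.25, adjusted p = 1.08e-05), and no other member of 31 tested Wnt pathway genes was called, against 0.481% of all genes (list median 0.056). DESeq2 called 6 of the 31 higher in IP and 1 higher in PA (899 and 754 over all genes). The 30 lambdoid libraries gave 5 and 1 (526 and 392 over all genes).

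Cdon, a cell surface co-receptor for hedgehog ligands, was at 134, 147, 165, 186 and 174 CPM in IP and 90.5, 72.9, 85.4, 117 and 120.2 CPM in PA, without overlap (0.74, SE 0.16, adjusted p = 0.0104). In SM it was at 347 to 453 CPM. It was the only called gene of 16 tested in the hedgehog pathway, against 0.481% of all genes. DESeq2 called 1 of the 16 in each direction (899 and 754 over all genes). The pathway's readout Gli1 (0.29, adjusted p = 0.967), the ligand Ihh (-0.72, adjusted p = 0.902) and Gas1 (0.50, adjusted p = 0.405) did not pass.

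Epha5, an ephrin receptor best known from axon guidance, was at 23.8, 21, 19, 29.2 and 33.5 CPM in IP and 6.88, 6.45, 5.02, 2.32 and 9.98 CPM in PA, a clear gap (2.08, SE 0.38, adjusted p = 0.000889). It was 1 of 20 tested ephrins and Eph receptors, and the only one called, against 0.481% of all genes. Epha5 remained called in all 15 other settings. DESeq2 called 3 of the 20 higher in IP and 2 higher in PA (899 and 754 over all genes).

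**Figure D3:**
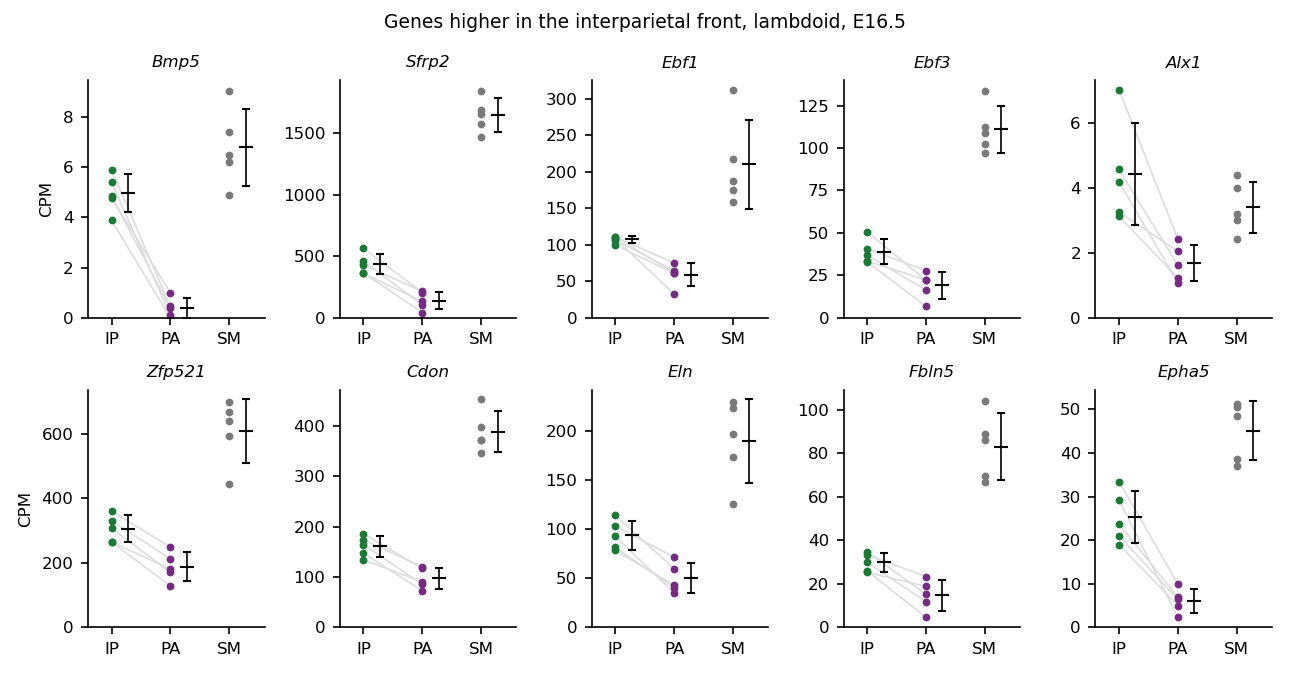
CPM of 10 genes called higher in IP, drawn as in the plot of genes higher in PA (IP green, PA purple, SM grey; lines join the pieces of an embryo; bars give mean and SD over 5 embryos). IP libraries of Bmp5 run from 3.88 to 5.9 CPM and PA libraries from 0 to 0.989, and for all 10 genes except Alx1 and Bmp5 the SM libraries lie above both fronts.

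Of 40 tested transcription factors of the neural crest, mesoderm and skull pattern, 3 were called, all higher in IP, against 0.481% of all genes, and the median of the list was 0.19. No gene of the list was called without embryo 1, without embryo 2 or without embryo 3, and 1 was without embryo 4. Over all genes these 4 fits called only 42, 14, 24 and 38 higher in IP. Alx1, a homeobox gene of the cranial neural crest, was low, at 4.58, 4.19, 3.13, 3.26 and 7.04 CPM in IP and 1.62, 1.07, 1.23, 2.05 and 2.43 CPM in PA. The ranges did not overlap (1.36, SE 0.33, adjusted p = 0.0241), though the call was lost by voom, in the 30 lambdoid libraries and without embryo 1, 2, 3 or 5.

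Ebf1 and Ebf3 are early B-cell factor family members that also act in mesenchyme. Ebf1 was at 99.5, 108, 107, 111 and 111 CPM in IP and 60.8, 32.6, 64.6, 61.4 and 74.9 CPM in PA (0.91, SE 0.21, adjusted p = 0.0199). Ebf3 was at 33.4, 33, 36.9, 50.7 and 40.7 CPM in IP and 22.3, 6.69, 16.2, 22 and 27.8 CPM in PA (1.10, SE 0.28, adjusted p = 0.0331). IP exceeded PA in every embryo for both, with the largest ratio in embryo 2. Neither was called without embryo 1, 2, 3 or 4, and Ebf3 also not by voom or without the block. In SM they were at 159 to 312 CPM and 97.3 to 134 CPM.

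Other transcription factors were called outside that list. Eya4, a co-activator with phosphatase activity, was at 7.54, 11.4, 5.03, 15.9 and 9.3 CPM in IP and 2.48, 0, 2.56, 3.75 and 6.29 CPM in PA (1.73, SE 0.42, adjusted p = 0.0243). Tbx2, a T-box repressor, was named here after its values had been seen: it was at 9.69, 9.44, 9.39, 10.1 and 13.9 CPM in IP and 2.39, 3.7, 5.95, 4.02 and 1.89 CPM in PA, without overlap (1.55, SE 0.42, adjusted p = 0.0481), while SM held only 0.635 to 3.53 CPM. Foxp1, a forkhead factor, was at 36.2 to 47.8 CPM in IP and 17.3 to 29.8 CPM in PA (0.75, SE 0.17, adjusted p = 0.0113).

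Emx2os, an antisense RNA beside the homeobox gene Emx2, was at 4.4, 7.34, 9.39, 5.64 and 2.09 CPM in IP and 0.0955, 0, 0.308, 0.357 and 0.809 CPM in PA (4.03, SE 0.86, adjusted p = 0.00864). The groups did not overlap, and the call was lost without embryo 1, 2 or 3. Emx2 was at 3.23, 3.88, 2.84, 2.2 and 2 CPM in IP and 0.191, 0, 0.615, 0.714 and 0.36 CPM in PA and did not pass (2.92, SE 0.85, adjusted p = 0.08). Their annotated ends overlap and the library kit does not mark strand, so that reads in the overlap cannot be assigned to either. Foxl2os, named after its values had been seen, went the other way, at 0, 0.21, 0.0948, 0.176 and 0 CPM in IP and 0.573, 1.19, 2.15, 2.77 and 2.79 CPM in PA (-4.19, SE 0.80, adjusted p = 0.00169); Foxl2, a forkhead factor that it adjoins, had no read in any IP library and 0.119 to 0.625 CPM in PA (adjusted p = 0.096).

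Hox genes, which pattern the trunk and hindbrain, were nearly silent on both sides. Of 20 Hox genes, 9 had no read in the 10 libraries and the rest shared 243 reads, 7 to 47 a library. Only Hoxd8 passed the filter on low counts, and it was not called (-0.46, adjusted p = 1).

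The list of fibrous tissue matrix held calls in both directions. Of its 33 tested genes, 4 were called higher in IP (against 0.481% of all genes) and 3 higher in PA (against 0.501%), with a median of 0.30 (0.13 without embryo 2, and -0.011 at E18.5). Those higher in PA were Col5a2, Tnc and Lum, given above. Those higher in IP were elastin (Eln), fibulin 5 (Fbln5), fibrillin 2 (Fbn2) and Col8a2, of which the first 3 are components or assembly factors of elastic fibres and microfibrils.

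Eln was at 78.5, 92.7, 81.4, 114 and 103 CPM in IP and 43.1, 35.2, 40.4, 60 and 71.6 CPM in PA (0.95, SE 0.20, adjusted p = 0.00443). Fbn2 was at 353, 402, 389, 574 and 529 CPM in IP and 236, 52.9, 166, 258 and 388 CPM in PA (1.17, SE 0.27, adjusted p = 0.0128). Fbln5 was at 25.3, 26, 29.9, 34.8 and 33.4 CPM in IP and 18.9, 4.66, 11.8, 15.2 and 23.4 CPM in PA (1.10, SE 0.27, adjusted p = 0.0237). IP exceeded PA in every embryo, PA embryo 2 was the lowest library for each of the 3, and only Fbn2 had an overlap, by PA embryo 5. In SM the levels were 125 to 229 CPM for Eln, 987 to 1455 CPM for Fbn2 and 66.8 to 104 CPM for Fbln5. Col8a2, a short-chain collagen, was at 78.3 to 138 CPM in IP and 30.6 to 78.9 CPM in PA (0.90, SE 0.22, adjusted p = 0.0207). Without embryo 2, none of these 4 passed the test, and without embryo 3 or embryo 4 only Eln did. Over all genes those fits called 14, 24 and 38 higher in IP.

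Surface and matrix genes outside the lists followed. Frem1, a basement membrane protein, was at 17.9, 23, 20.2, 32.8 and 18.51 CPM in IP and 8.02, 1.07, 5.33, 8.84 and 5.66 CPM in PA (2.01, SE 0.42, adjusted p = 0.00524). Lama2, the laminin alpha 2 chain, named after its values had been seen, was at 68.9, 74.9, 67.6, 105 and 86.6 CPM in IP and 31.3, 9.32, 30.4, 45.5 and 54.1 CPM in PA (1.32, SE 0.21, adjusted p = 5.56e-05). Both had groups that did not overlap, and PA embryo 2 was again the lowest library. Chodl, a membrane protein with a lectin domain, was at 3.86, 8.81, 13.7, 14.1 and 15.3 CPM in IP and 3.44, 0.239, 2.56, 3.04 and 5.93 CPM in PA, against 134 to 159.8 CPM in SM (1.85, SE 0.49, adjusted p = 0.0431).

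Nlgn1, a synaptic adhesion protein, was at 8.44, 5.24, 8.91, 10.1 and 7.65 CPM in IP and 1.15, 0.119, 0.82, 1.52 and 1.26 CPM in PA (3.07, SE 0.57, adjusted p = 0.00112). Every IP library was above every PA library, with PA embryo 2 the lowest. Adgrb3, an adhesion receptor, was at 7.76 to 13 CPM in IP and 0.41 to 4.59 CPM in PA (2.52, SE 0.67, adjusted p = 0.0454). Car10 (3.33, adjusted p = 0.0481), Dgkk (3.71, adjusted p = 0.0481) and the non-coding RNA Rmst (4.75, adjusted p = 0.0255) were others of the 15 of largest difference.

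Grin3a, an NMDA receptor subunit (1.66, adjusted p = 0.0039), the calcium channel genes Cacna1g (0.77, adjusted p = 0.00524) and Cacna2d2 (1.66, adjusted p = 0.0101), and the protocadherins Pcdh9 (1.00, adjusted p = 0.00618), Pcdh10 (1.6, adjusted p = 0.0255) and Pcdh19 (0.91, adjusted p = 0.0243) were called in the same direction and are named after their values had been seen. Of 16 neuron and glia markers 13 were tested, with Neurod1 (no read), Rbfox3 and Pcp4 falling under the filter on low counts. None was called, 6 lay above 0 and the median was -0.06. Without embryo 2 the median was 0.50 with 9 above 0, and by DESeq2 0.28 with 8. Their sum was 90.5 to 109 CPM in IP and 90.4 to 136 in PA. Neurod6 was at 0.0955, 6.81, 0, 0.268 and 0 CPM in PA, almost all of it in embryo 2, and without a read in IP.

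Markers of some neighbouring tissues held calls, each higher in IP. Of 23 skeletal muscle markers, 15 passed the filter on low counts; the determination factors Myod1, Myf5, Myog and Pax7 did not. All 15 lay above 0 (median 1.10), and 1 was called (against 0.481% of all genes), Myh8, the perinatal myosin heavy chain. It was at 0.449, 0.21, 1.52, 8.72 and 5.56 CPM in IP and 0, 0, 0.103, 0.804 and 0.539 CPM in PA (3.28, SE 0.72, adjusted p = 0.0116). The summed markers were at 41, 29.4, 54.7, 309 and 79.1 CPM in IP and 28.7, 24.2, 28, 38.4 and 29.9 CPM in PA, so that IP embryo 4 held the most of the 10 fronts, and SM reached 884.

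Of 13 chondrocyte markers, 1 was called, against 0.481% of all genes, and 9 lay above 0. Col2a1, the collagen of cartilage, was at 31.9, 36.2, 42, 58.6 and 107 CPM in IP and 17.1, 8.12, 11.9, 23.5 and 28 CPM in PA, with IP higher in every embryo and no overlap (1.64, SE 0.35, adjusted p = 0.00635). The sum of the list was higher in IP in 3 of 5 embryos, at 177 to 347 CPM in IP and 160.2 to 207 in PA.

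Rgs5, a pericyte marker, was at 20.5, 50.7, 28.4, 73.3 and 12.7 CPM in IP and 4.49, 23.6, 3.9, 20.1 and 2.43 CPM in PA (1.95, SE 0.47, adjusted p = 0.0207); it was the only 1 of 12 pericyte and smooth muscle markers called, and IP was higher in every embryo although the groups overlap. Of that list 9 lay above 0, with a median of 0.32 (0.77 without embryo 1, 0.19 without embryo 2 and 0.58 without embryo 5), and the Rgs5 call was lost by voom and without the block. For this and the next 2 lists, 1 call each stands against 0.481% of all genes. Pmp22, on the list of Schwann cell and nerve, was called (0.78, adjusted p = 0.00288), with 6 of 6 tested above 0, no read for Foxd3 or Cdh19, and sums of 146 to 201 CPM in IP and 68.4 to 133 in PA. Foxp1 was the only call among 12 markers of dura and other meninges, whose sums were 69.4 to 102 in IP and 36.4 to 69.9 in PA. Of these markers 9 lay above 0 and 3 below, and Foxp1, at the levels given above, held a large part of each sum. All 8 tested of 10 mast cell markers lay above 0 (median 1.61) and none was called, Tpsb2 (1.96, adjusted p = 0.142) and Tpsab1 (2.70, adjusted p = 0.128), which are near copies of each other, having the smallest p. Mast cell sums were 177, 104, 174, 229 and 227 CPM in IP and 35.2, 65.3, 32.8, 189 and 139 CPM in PA, with IP higher in every embryo. The part of these tissues in the IP calls was not tested.

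Of 22 genes of suture mesenchyme and its stem cells, 16 lay above 0 with a median of 0.23, and none was called; the smallest p values belonged to Mest (0.63, adjusted p = 0.0568) and Cd34 (0.64, adjusted p = 0.0888). Their sum was higher in IP in all 5 embryos, at 2980 to 3634 CPM in IP, 2408 to 3135 in PA and 3510.2 to 4564 in SM. The share of SM cells in each piece was not tested.

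**Figure D4:**
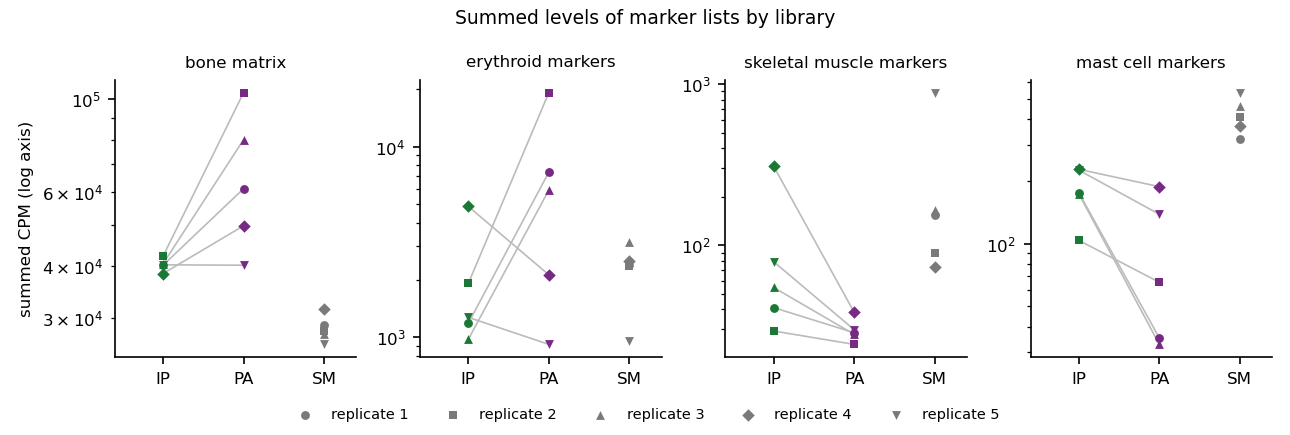
Summed CPM (log axis) of 4 gene lists in each IP (green), PA (purple) and SM (grey) library at E16.5, with symbols for the embryo and lines joining the IP and PA pieces of an embryo. Bone matrix sums run from 38325 to 42196 CPM in IP and from 40115 to 103787 in PA; embryo 2 is highest in PA for bone matrix and for erythroid markers.

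Among the PA pieces, bone matrix and red cell transcript were both highest in embryo 2 and both lowest in embryo 5. The bone matrix sum was 40121, 42196, 40469.8, 38325 and 40204 CPM in IP embryos 1 to 5, a narrow band, and 61166, 103787, 80120.1, 49855 and 40115 CPM in PA. Measures of the libraries moved with it: in PA embryos 1 to 5 the 100 most abundant genes took 39.5, 47.2, 41.7, 40.3 and 36.5% of counts, mitochondrial genes 14.9, 16.9, 15.5, 16.1 and 13.9%, and genes detected were 23994, 21967, 23457, 23811 and 24460. PA embryo 2 was highest in both shares and lowest in genes detected, and PA embryo 5 the reverse. The 100 most abundant genes include bone matrix genes such as Col1a1, so their share is not independent of the bone matrix sum. In IP the shares were 37.2, 37.9, 36.6, 38.7 and 39.2% and 15.8, 14.5, 14.4, 15.1 and 15.8%. The part of these measures in the bone matrix calls was not tested, and with 5 embryos no correlation is given.

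Several pathways gave no call in either direction. None was called among 23 tested genes of the FGF pathway (median 0.16), where Fgf18 (1.12, adjusted p = 0.316) and Fgf2 (0.57, adjusted p = 0.198), ligands that act on osteoblasts, had the smallest p. The same was true of 16 genes of the retinoic acid pathway (median 0.22), with the retinoid-degrading enzyme Cyp26b1 (0.77, adjusted p = 0.288) and the receptor Rarb (2.20, adjusted p = 0.412) first. Among 15 Notch pathway genes (median 0.095), Notch3 (0.81, adjusted p = 0.13) and Heyl (1.34, adjusted p = 0.576) came first. Among 13 genes of the insulin-like growth factor system, 12 lay above 0 (median 0.23); Igf1 (0.96, adjusted p = 0.085) and Igfbp5 (0.61, adjusted p = 0.227) had the smallest p.

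The 4 tested Dlx homeobox genes, which promote osteoblast differentiation, were not called; Dlx3 (-0.70, adjusted p = 0.805) and Dlx5 (0.14, adjusted p = 1) had the smallest p. Proliferation genes were nearly level, with 8 of 20 above 0 and a median of -0.031; Smc2 (-0.30, adjusted p = 0.743) and Mcm5 (0.24, adjusted p = 0.943) came first. P4ha1 was the only call among 21 genes of glycolysis and the hypoxia response (median -0.27), against 0.501% of all genes. Of 22 immediate early and heat-shock genes none was called (median -0.098), with Hspa1a (-2.88, adjusted p = 0.347) and Egr1 (-0.86, adjusted p = 0.67) first.

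No marker was called either for endothelium (median 0.17; Pecam1 0.36, adjusted p = 0.878 and Gpihbp1 0.53, adjusted p = 0.909), macrophages (median -0.05; Mrc1 -0.43, adjusted p = 0.538 and Ms4a7 0.75, adjusted p = 0.891) or osteoclasts (median -0.097; Tnfrsf11a -1.14, adjusted p = 0.128 and Car2 -1.29, adjusted p = 0.731). The same holds for hypodermal fibroblasts (median 0.85; Dlk1 1.12, adjusted p = 0.138 and Agtr2 1.39, adjusted p = 0.541), keratinocytes (median -0.022; Perp -1.0, adjusted p = 0.964 and Krt1 0.94, adjusted p = 0.982) and adipocytes (median 0.13; Lpl 1.15, adjusted p = 0.3 and Pparg -0.94, adjusted p = 0.954). Krt14, a defining keratinocyte gene, had no read, and keratinocyte sums stayed at 6.25 to 11.8 CPM in IP and 7.9 to 10.9 in PA. Eif2s3y (-0.40, adjusted p = 0.428) and Ddx3y (-0.33, adjusted p = 0.589), Y-linked genes, were read in all 10 libraries and were not called.

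These counts of 0 hold for the fit to all 100 libraries and not for every other fit. Over all genes tested, 1705 of 19768 had an unadjusted p under 0.05. At that threshold the genes numbered 2 for FGF, 2 for retinoic acid, 2 for Notch, 4 for insulin-like growth factor, 0 for Dlx, 0 for proliferation and 1 for immediate early and heat-shock. For the marker lists without a call the numbers were 6 for SM, 5 for mast cell, 1 for neuron and glia, 0 for endothelium, 1 for macrophage, 1 for osteoclast, 2 for hypodermal fibroblast, 0 for keratinocyte and 1 for adipocyte. The erythroid list, also without a call in the main fit, is described above and left out of the counts in this paragraph. Limma voom called 1 of the genes counted here, a hypodermal fibroblast marker, beside 171 of all 19768 genes. DESeq2 called, as higher in IP, 2 for FGF, 4 for retinoic acid, 1 for Notch, 4 for insulin-like growth factor, 4 for SM, 4 for mast cell, 1 for neuron and glia, 3 for hypodermal fibroblast and 1 for adipocyte, and as higher in PA 1 each for SM, osteoclast and immediate early and heat-shock. Over all 19765 genes DESeq2 called 899 higher in IP and 754 higher in PA. Several lists with a call in the main fit gained calls there too, among them the pattern factors (12 higher in IP and 2 higher in PA) and fibrous tissue matrix (11 and 8). EdgeR itself, fitted to the 30 lambdoid libraries, called as higher in IP 2 for FGF, 1 for retinoic acid, 1 for Notch, 2 for insulin-like growth factor, 3 for SM, 6 for mast cell, 1 for neuron and glia and 2 for hypodermal fibroblast, and as higher in PA 1 each for SM and osteoclast. Over all 19768 genes that fit called 526 higher in IP and 392 higher in PA. With no filter on low counts edgeR called as higher in IP 2 for Notch, 3 for insulin-like growth factor, 3 for SM, 6 for mast cell and 2 for hypodermal fibroblast, and as higher in PA 1 each for Dlx and neuron and glia. Over all 42509 genes of that fit 243 were called higher in IP and 197 higher in PA. Over the same 100 libraries, total counts called 1 gene each for FGF, insulin-like growth factor and SM as higher in IP, and median-ratio scaling and the other filter on low counts 1 each for SM. Over all genes these settings called 160, 102 and 109 higher in IP. The list medians moved up with all genes by total counts, so that those of the BMP and TGF-beta (0.074), proliferation (0.13), immediate early and heat-shock (0.075), neuron and glia (0.11), macrophage (0.14), osteoclast (0.09) and keratinocyte (0.18) lists lay above 0 there.

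Many of the named calls were lost when 1 embryo was left out, which also leaves fewer values to test. Over all genes 1705 had an unadjusted p under 0.05 with every embryo and 1029 without embryo 2. Whether a lost call reflects the embryo or the smaller number of embryos was not tested. Of the 51 named genes that were called, 14 remained so without any 1 embryo: Bmp5, Cd109, Col11a1, Col5a2, Enpp1, Epha5, Loxl2, Nlgn1, P3h2, P4ha1, Postn, Sfrp2, Trps1 and Zfp521. Without embryo 2, 35 lost their call, without embryo 3 32, without embryo 1 19, without embryo 4 18 and without embryo 5 5. Col1a2, Eln, Frem1, Pmp22 and Spp1 lost it without embryo 2 alone. Ap1s2, Cdon, Chrdl1, Col2a1, Kcnk1 and Plppr4 lost it without embryo 2 or 3, Myh8 without 3 or 4, Tnc without 1, 3 or 4, and Chodl, Col8a2, Fbln5, Fbn2, Foxp1 and Lum without 2, 3 or 4. Aldh1l2, Col1a1, Emx2os, Sparc, Sptb and Vldlr lost it without embryo 1, 2 or 3, Alx1 and Rmst without 1, 2, 3 or 5, and Adgrb3, Col24a1, Ebf1, Ebf3, Eya4, Rgs5 and Runx1 without embryo 1, 2, 3 or 4. Car10, Dgkk and Rpl39l lost it whichever embryo was left out. By voom Alx1, Chodl, Col1a1, Ebf3, Eln, Enpp1, Eya4, Fbln5, Foxp1, Frem1, Lum, Plppr4, Postn, Rgs5, Rpl39l and Runx1 were not called. Without the block Adgrb3, Car10, Chodl, Chrdl1, Col1a1, Col2a1, Col8a2, Dgkk, Ebf3, Fbln5, Fbn2, Lum, Rgs5, Runx1 and Sparc were not. By total counts Col1a1, Col24a1, Lum, Rpl39l, Runx1, Sparc, Tnc and Vldlr were not, by DESeq2 Col1a1, Col1a2 and Eya4, by median-ratio scaling Col24a1, with no filter Rpl39l, and in the 30 lambdoid libraries Alx1.

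**Figure D5:**
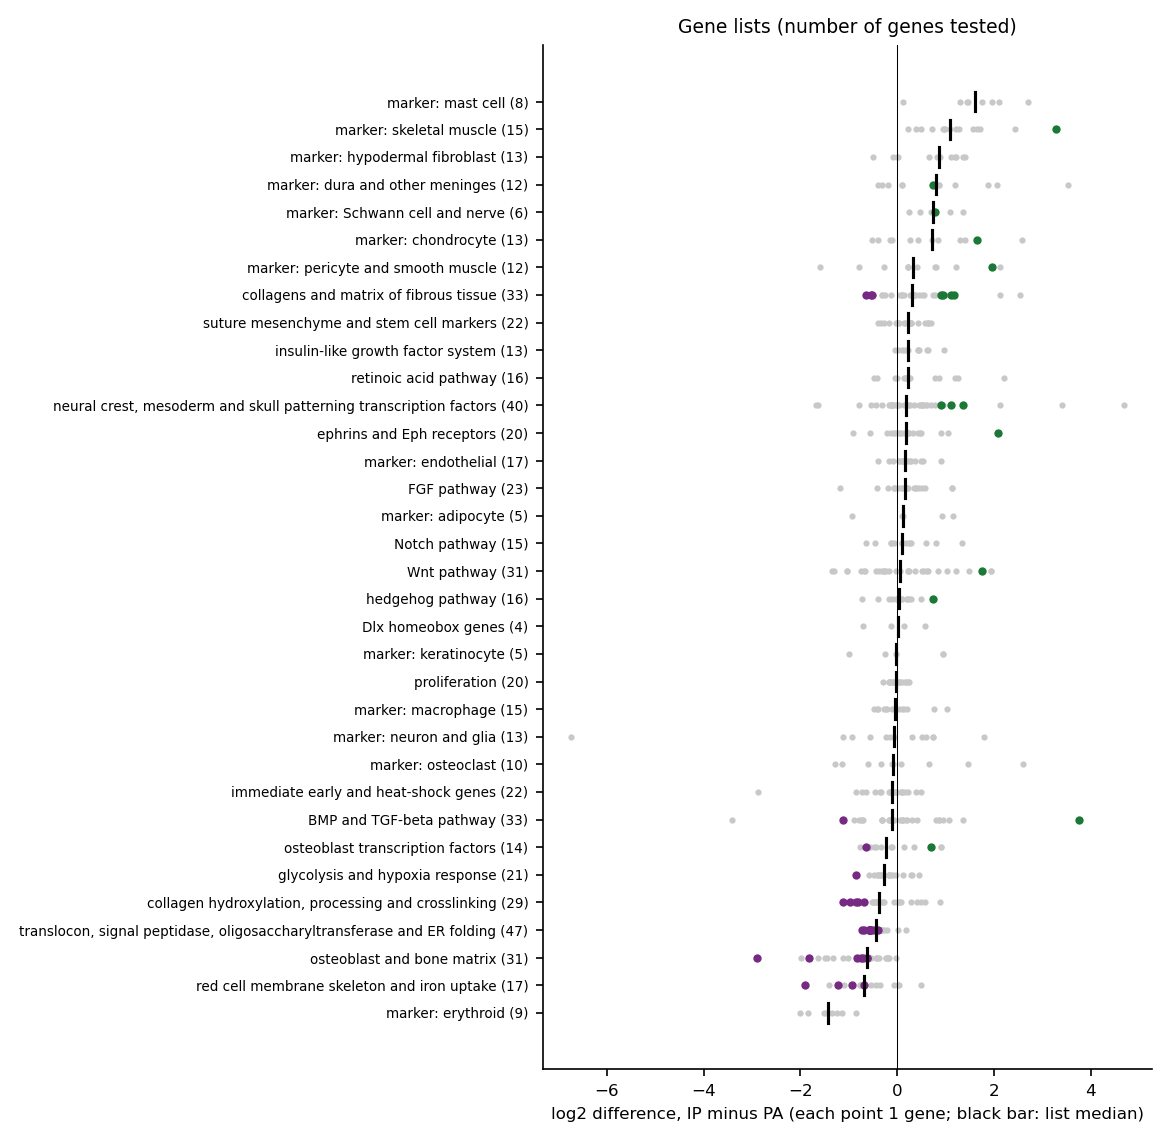
Log2 difference, IP minus PA, of each tested gene (1 point a gene) in each list, with the list median as a black bar and the number of genes tested in brackets; green points are called higher in IP, purple points called higher in PA, grey points are not called. Lists are ordered by median, from erythroid markers at -1.44 to mast cell markers at 1.61; all points of the bone matrix list lie below 0.

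The same 2 fronts were cut from other embryos at E18.5, 5 of each. There 3 genes were called between IP and PA (0.0152% of those tested), Bmp5, Chrdl1 and St3gal1, and all 3 were among the 194 of E16.5 with the same sign. St3gal1, a sialyltransferase, was at 128, 127, 114, 109 and 134 CPM in IP and 214, 357, 262, 201 and 156 CPM in PA at E16.5 (-0.91, SE 0.15, adjusted p = 0.000238), and at E18.5 its difference was -0.76 (SE 0.15, adjusted p = 0.0372). Bmp5 differed by 2.92 (SE 0.51, adjusted p = 0.00363) at E18.5, and Chrdl1 by -1.57 (SE 0.25, adjusted p = 0.00141).

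Of the 194 genes called at E16.5, 175 (90.2%) had the same sign at E18.5, against 59.7% of all genes; no library was shared between the ages. Their differences were smaller, with a median size of 0.22 at E18.5 beside 0.75 at E16.5, where they had been selected. Tested directly, the difference between the ages passed for no gene in the fit to all 100 libraries. There 495 of 19768 genes had an unadjusted p under 0.05, a smaller share than chance gives at that threshold. Limma voom gave no call, while edgeR gave 30 with no filter on low counts and 7 in the 30 lambdoid libraries alone. Of the 194 genes, 112 had an unadjusted p under 0.05 for the difference between ages in the fit to all 100 libraries. At E18.5 192 of them differed less, but they had been selected at E16.5. For IP against PA at E18.5, 614 of 19768 genes had an unadjusted p under 0.05, also fewer than chance gives. Few calls in either test therefore do not show that the fronts or the ages are equal. Spp1 differed by -0.61 at E18.5, Zfp521 by -0.042, Col11a1 by -0.13 and Trps1 by -0.38. The bone matrix list had a median of -0.22 at E18.5.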

How the data were processed

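RNA of laser-captured pieces was extracted (PicoPure), amplified (Ovation RNA-Seq System V2), tagmented (Nextera XT) and sequenced. Per the labels, the authors trimmed reads with cutadapt, aligned them with STAR 2.5.3a to mm10 and deposited raw counts per gene from featureCounts 1.6.4. Strand setting is not given in the sources used here.

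Counts were fitted in R 4.3.3 with edgeR 4.0.16 (quasi-likelihood, two-sided) over all 100 first laser-captured libraries, with the filter (genes with at least 1 CPM in more than 10% of libraries) and TMM scaling that the study applied to a larger set of libraries and sutures before limma voom, here an alternative; the model had a term for each of 20 groups and the embryo as a block. Named genes were the 15 largest called differences in each direction (same sign in 5 pairs, at least 2 CPM in the higher group). Called list members were named too, and 2 members of smallest p in lists without a call. Other genes, among them Dmp1, Phex, Loxl1, Runx2, Sp7, Gli1, Ihh and Gas1, were not fixed by this rule. Only some of them are marked as chosen after their values were seen. The values of 1 gene that met this rule are not reported here. Members and lists were chosen with earlier results of these data known. The pairing comes from the litter label, which names 1 embryo for the pieces of a number. Deviations of IP and PA from their group means correlated at 0.02 to 0.28 within numbers (median 0.096) and at a median of -0.045 between numbers, over 10965 genes. Of the 5 IP libraries, 3 correlated best with the PA library of their own number. Alternatives were median-ratio or total-count scaling, no or another filter, limma voom 3.58.1, DESeq2 1.42.0, no block, fewer libraries, and leaving out each embryo. On simulated counts for this comparison over 5000 genes, 26 of 100 genes changed 2-fold and 81 of 100 changed 3-fold were called, with 6 false calls. These counts were drawn with the same spread for every gene, so the rates describe that setting only. Whether the real libraries share it was not tested. The authors' second and complete libraries, single-cell data and other sutures were not used beyond the shared spread. Replicates are separate embryos.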

Additional observations from a re-analysis of the deposited data

Results flagged for a closer look

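In groups of 5 libraries, 19 of 250 groups tested (7.6%) held 1 library whose gap to the nearest other exceeded Dixon's limit, where chance gives about 1 in 20. In IP, embryo 4 stood apart for summed skeletal muscle markers (309 CPM), summed erythroid markers (4861 CPM), Hba-a1 (1085 CPM), Hbb-bt (709 CPM) and Car2 (19.1 CPM), all high, and for P3h2 (27.6 CPM), low. IP embryo 5, the one from the second litter, stood apart as low for Col11a1 (472 CPM), Eif2s3y (17.3 CPM) and Smc2 (41.6 CPM) and as high for summed genes of glycolysis and the hypoxia response (3569 CPM). IP embryo 1 was low for summed neuron and glia markers (90.5 CPM).

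In PA, embryo 2 stood apart as high for summed neuron and glia markers (136 CPM), Neurod6 (6.81 CPM) and Sptb (68.9 CPM). PA embryo 1 was high for Pparg (4.87 CPM), and PA embryo 4 for summed FGF pathway genes (1333 CPM) and Rmst (0.357 CPM). PA embryo 5 was low for Postn (369.5 CPM) and Tnfrsf11a (9.8 CPM).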

How the results depend on the processing

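Called genes at E16.5, 194 in all (95 higher in IP, 99 higher in PA), numbered 440 (243 and 197) with no filter on low counts, 1653 (899 and 754) by DESeq2 on the 15 lambdoid E16.5 libraries, and 918 (526 and 392), 1192 (692 and 500) and 966 (497 and 469) when edgeR was fitted to 30, 15 or 10 libraries. The 30, 15 and 10 libraries called 192, 191 and 187 of the 194. Without the replicate block the count was 96 (48 and 48). That fit left out the embryo terms of all 100 libraries, so it does not isolate the pairing of IP and PA. Total counts without TMM gave 160 and 29. Leaving out 1 embryo gave 32 to 212 calls, 14 to 111 higher in IP and 18 to 101 higher in PA. With fewer libraries the spread is estimated on other samples; the cause of the other changes was not tested.

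At E18.5 the 3 calls became 57 with no filter, 1 by voom and 38 in 30 libraries. The difference between ages gave 30 calls with no filter and 7 in 30 libraries, and none with other scalings, by voom, without the block or without any 1 embryo; it was not computed in the remaining settings. Of 51 named genes that were called, 12 remained called in every setting that tested them, and no named gene changed sign in any. In simulated counts with the same spread for every gene, few 2-fold changes were called by the fit over 100 libraries. A gene that missed the threshold is not shown to be equal between the fronts.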

Other observations

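Further genes called between the fronts, named after their values were seen, lay outside the lists. Higher in PA were the following genes of transport between the ER and the Golgi, a group for which no list was counted: Lman1, a cargo receptor (-0.47, adjusted p = 0.0431), Tmed10 (-0.51, adjusted p = 0.0409), the coatomer subunits Copb1 (-0.45, adjusted p = 0.0252) and Copb2 (-0.44, adjusted p = 0.0307), the coat component Sec31a (-0.36, adjusted p = 0.0483), and the GTPases Arf4 (-0.51, adjusted p = 0.0335) and Rab1a (-0.40, adjusted p = 0.0359). Copb1 was at 120.0 to 189 CPM in IP and 166 to 282 CPM in PA.

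The non-coding RNAs Meg3 and Rian, which come from the same imprinted cluster, were both higher in IP. Meg3 was at 216, 358, 314, 245 and 301 CPM in IP and 182, 92.2, 135, 106 and 246 CPM in PA (0.99, SE 0.24, adjusted p = 0.0207), and Rian was at 348 to 446 CPM in IP and 145 to 354 CPM in PA (0.76, SE 0.20, adjusted p = 0.0473). Integrin alpha chains Itga1 (1.06, adjusted p = 0.0311) and Itga8 (1.16, adjusted p = 0.0205), the endothelin receptor Ednra (0.75, adjusted p = 0.0116), the extracellular sulphatase Sulf1 (1.02, adjusted p = 0.0473), the TGF-beta binding protein Ltbp1 (0.79, adjusted p = 0.00138) and the nuclear factors Nfia (0.60, adjusted p = 0.022) and Nfib (0.50, adjusted p = 0.0365) were called in the same direction.

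Kera (keratocan) and Mrgprb2 (a mast cell receptor) were low in IP and nearly absent from PA. Kera was at 0.179, 1.05, 1.14, 0.969 and 0.608 CPM in IP, with no read in PA (adjusted p = 0.0206), and Mrgprb2 was at 1.08, 1.47, 1.04, 2.29 and 1.48 CPM in IP and 0, 0, 0, 0 and 0.0899 CPM in PA (adjusted p = 0.00302).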
